A study of Mus musculus with 6 samples.

Results

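The genes of the MHC class II pathway were followed in RNA of CD4+TCRβ+ cells from the lymph nodes of naive female mice. The members are 10 genes chosen by name: H2-Aa, H2-Ab1, H2-Eb1, Cd74, Ciita, H2-DMa, H2-DMb1, H2-DMb2, H2-Oa and H2-Ob. The array reads them with 9 transcript clusters, sets of probes summarized to 1 value per gene, out of 23410 clusters with a gene symbol. H2-DMb1 and H2-DMb2 share 1 cluster and cannot be told apart, and each of the other 8 genes has a cluster of its own. B6-ChrYSJL females are daughters of C57BL/6J consomic males that carry the ChrY of the SJL strain, and B6 females are wild-type C57BL/6J. Neither group carries a ChrY itself, so that the groups differ in the ChrY of the fathers. All were 8 weeks old and came from litters of both sexes. There were 3 pools of B6-ChrYSJL and 3 pools of B6, each of the axillary, brachial and inguinal nodes of 5 mice and each measured on 1 Affymetrix Mouse Gene 1.0 ST array. The study asked whether the basal transcriptome of these cells differed between the daughters.

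MHC class II molecules present peptides from endosomes to CD4+ T cells. Each is a pair of an α and a β chain, I-A of H2-Aa and H2-Ab1 in the mouse and I-E of H2-Ea and H2-Eb1. The α gene of I-E is defective in C57BL/6 mice, which therefore show no I-E on the cell surface. The invariant chain Cd74 guards the groove and leads the molecules to endosomes, where H2-DM (H2-DMa with an H2-DMb chain) exchanges its remnant for other peptides and H2-DO (H2-Oa with H2-Ob) restrains H2-DM. Ciita is the coactivator that turns the class II genes on, through factors bound to a conserved module of X and Y boxes in their promoters. B cells, dendritic cells and macrophages carry class II molecules, and mouse T cells are known for carrying little or none. The sort took cells positive for CD4 and TCRβ, and no antibody to a B cell or myeloid marker was part of it.

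The promoters were set side by side because the class II genes are known for this shared module. Each line gives the 40 bases before the Y box core, the core and the 10 bases after it, from RefSeq (GRCm38.p6), 5′ to 3′ on the strand of the gene. Capitals mark the Y box core GATTGG and, where its letters occur, the X box core AGCAAC.
H2-Aa (chr17:34287857-34287912, minus strand): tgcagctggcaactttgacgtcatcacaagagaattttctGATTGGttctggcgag
H2-Eb1 (chr17:34305767-34305822, plus strand): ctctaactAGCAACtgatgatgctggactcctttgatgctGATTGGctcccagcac
H2-DMb1 (chr17:34153089-34153144, plus strand): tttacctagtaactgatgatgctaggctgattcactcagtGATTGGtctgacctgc
H2-DMb2 (chr17:34145118-34145173, plus strand): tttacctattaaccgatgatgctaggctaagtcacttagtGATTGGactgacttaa
H2-Oa (chr17:34092295-34092350, plus strand): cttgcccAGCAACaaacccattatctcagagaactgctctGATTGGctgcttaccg
H2-Ob (chr17:34238807-34238862, plus strand): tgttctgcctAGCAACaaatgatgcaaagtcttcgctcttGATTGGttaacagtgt

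Of the 10 members, 7 matched an entry of the promoter table, with 8 starts. H2-Ab1, Cd74 and Ciita had no entry. GATTGG, or CCAATC for the other strand, lay in a promoter window of all 7, against 16.1% of 32851 windows of 300 bases. In H2-DMa it lay at 1 of the 2 starts, which is not printed. AGCAAC, or GTTGCT for the other strand, lay in 3 of the 7 (H2-Eb1, H2-Oa and H2-Ob), against 14.8% of all windows. In these 3 the 2 cores stood on the same strand with 26, 27 and 24 bases between them, an order within 40 bases that 62 of all windows (0.189%) held; this spacing rule was chosen after the sequences were seen. The stretches of H2-DMb1 and H2-DMb2, the genes that share a transcript cluster, had the same letter at 47 of 56 positions. A match describes letters, not a bound site.

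The arrays were alike in their distributions, with medians of 6.41 to 6.44 on the log2 scale and correlations between arrays of 0.991 to 0.993 across transcripts. Signals are log2 values after RMA. Genes for smell and pheromone receptors set a background level of 5.98, below which 95% of their 1205 clusters averaged, and 61.5% of the clusters tested exceeded this level. The T cell transcripts Cd4, at 11.49 to 11.54 in B6-ChrYSJL and 11.50 to 11.61 in B6, and Cd3e, at 12.48 to 12.53 in B6-ChrYSJL and 12.48 to 12.51 in B6, were far above background in every pool. All 9 class II clusters averaged above background, and Ciita alone reached it on only 4 of the 6 arrays. B6-ChrYSJL replicate 1 departed from the other pools of its strain in several class II transcripts, so the strain differences that rest on it are given with and without it.

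H2-Ab1 and H2-Eb1 averaged 1.56-fold and 1.30-fold higher in B6-ChrYSJL, H2-Aa 1.31-fold with a wide interval, while the clusters of Cd74, Ciita, H2-DM and H2-DO lay within 0.15 of each other on the log2 scale in the 2 strains. None of the 9 clusters passed an FDR of 0.05 (the Benjamini-Hochberg adjusted p of limma), as 4 of all 23410 tested did (0.0171%). At an unadjusted p under 0.05 in limma, 2 of the 9 were higher in B6-ChrYSJL, against 4.69% of all tested, and 0 were lower, against 5.92%; in either direction these were 10.6% of all tested. With each array centred on its median, 815 of all tested transcripts were higher and 1761 lower at this p, against 1099 and 1385 as deposited, and the 2 class II clusters called were the same. The median difference of the 9 was 0.03, and that of all tested transcripts −0.0036. In none of the 9 did the pools of one strain lie wholly above those of the other, against 17.1% of all tested.

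H2-Ab1, the β chain of I-A, had signals of 6.77, 7.66 and 7.40 in B6-ChrYSJL replicates 1, 2 and 3, against 6.76, 6.34 and 6.82 in B6. B6-ChrYSJL replicates 2 and 3 were above every B6 pool, and replicate 1 lay among them. The difference was 0.64 on the log2 scale (standard error 0.22, 95% interval 0.14 to 1.14, unadjusted p = 0.0189 and adjusted p = 0.398 in limma). H2-Eb1, the β chain of I-E, had 6.84, 7.19 and 7.36 in B6-ChrYSJL, against 6.70, 6.85 and 6.73 in B6. The groups overlapped by the narrowest margin here, since only B6 replicate 2 exceeded the lowest B6-ChrYSJL pool, by less than 0.01. The difference was 0.37 (standard error 0.13, interval 0.08 to 0.66, unadjusted p = 0.0175 and adjusted p = 0.393 in limma). In a linear model without moderation, as in the methods, neither H2-Ab1 (unadjusted p = 0.105) nor H2-Eb1 (0.0818) kept an unadjusted p under 0.05.

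H2-Aa, the α chain of I-A, spread furthest of the 9 transcripts. It had 7.01, 8.11 and 8.20 in B6-ChrYSJL, against 7.18, 7.50 and 7.47 in B6. The B6-ChrYSJL pools thus held both the lowest value of all and the 2 highest. The difference of 0.39 did not exceed this spread (standard error 0.28, interval −0.26 to 1.03, adjusted p = 0.655 in limma). Cd74, the invariant chain, showed the same order of pools within B6-ChrYSJL, at 7.68, 8.39 and 8.51, against 8.17, 8.07 and 8.16 in B6. Its strain means were 8.20 ± 0.45 (SD, n = 3 pools) in B6-ChrYSJL and 8.13 ± 0.06 in B6, with a difference of 0.06 (standard error 0.19, interval −0.37 to 0.50, adjusted p = 0.93 in limma). For a bulk pool, more cells with class II RNA and more such RNA per cell cannot be told apart.

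**Figure D1:**
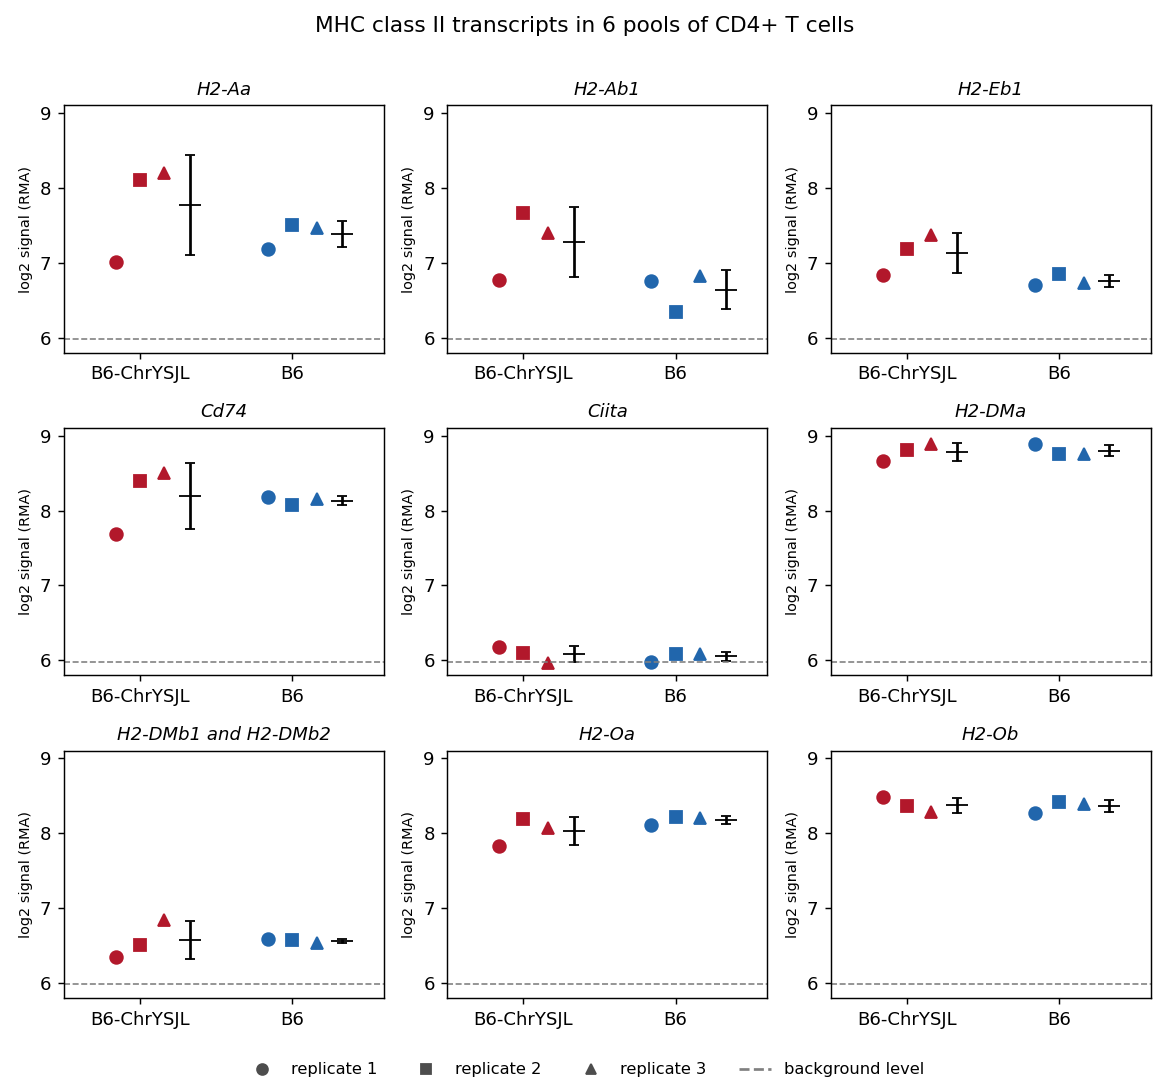
Log2 signal after RMA (vertical) of the 9 class II transcript clusters in the pools of B6-ChrYSJL (red) and B6 (blue), with replicates 1, 2 and 3 as circles, squares and triangles, the mean and SD (n = 3) as black marks and the background level of 5.98 as a dashed line. In H2-Aa, H2-Ab1, H2-Eb1 and Cd74 the B6-ChrYSJL replicates 2 and 3 lie above all B6 pools and replicate 1 does not, while Ciita stays near the background level.

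Ciita, the coactivator, stayed at the edge of detection. It had 6.18, 6.10 and 5.97 in B6-ChrYSJL, against 5.98, 6.09 and 6.09 in B6, and the difference was 0.03 (interval −0.15 to 0.21, adjusted p = 0.916 in limma). Its highest signal was in B6-ChrYSJL replicate 1 and its lowest in replicate 3, the reverse of the order of H2-Aa and Cd74 in that strain.

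The genes of peptide editing were closer together. H2-DMa, the α chain of H2-DM, had 8.66, 8.81 and 8.89 in B6-ChrYSJL, against 8.88, 8.75 and 8.75 in B6 (difference −0.01, interval −0.20 to 0.17, adjusted p = 0.968 in limma). The shared cluster of H2-DMb1 and H2-DMb2, the β chains of H2-DM, had 6.35, 6.51 and 6.84 in B6-ChrYSJL, against 6.59, 6.57 and 6.53 in B6 (0.01, interval −0.26 to 0.27, adjusted p = 0.989). In both, the B6-ChrYSJL pools reached beyond the B6 pools on either side. H2-Oa, the α chain of H2-DO, had 7.83, 8.19 and 8.07 in B6-ChrYSJL, against 8.11, 8.21 and 8.21 in B6, and its difference of −0.15 was the furthest below 0 of the 9 (interval −0.37 to 0.07, adjusted p = 0.62 in limma). Its partner H2-Ob had 8.48, 8.36 and 8.29 in B6-ChrYSJL, against 8.27, 8.42 and 8.39 in B6 (0.02, interval −0.16 to 0.19, adjusted p = 0.955 in limma). The intervals of H2-DMa, H2-Ob and Ciita end at 1.15-fold or lower on the upper side.

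The difference of the chains depended on which pools of B6-ChrYSJL were counted. Without B6-ChrYSJL replicate 1, H2-Aa, H2-Ab1, H2-Eb1 and Cd74 differed by 0.77, 0.90, 0.52 and 0.32 (unadjusted p = 0.000222, 0.000762, 0.000633 and 0.00479 in limma). These 4 clusters were then higher at an unadjusted p under 0.05, against 4.07% of all tested, and did not overlap, against 12.8% of all tested. None passed an FDR of 0.05 (adjusted p = 0.301 to 0.421 in limma). Replicate 1 was set apart because of these same class II values, so leaving it out had to raise the differences. The p-values without it are descriptions and give no support of their own. Without B6-ChrYSJL replicate 3 none of the 9 clusters had an unadjusted p under 0.05 in limma, and H2-Ab1 and H2-Eb1 were at 0.58 and 0.26. Of all 23410 tested, 773 were then higher and 1008 lower at this p. Without B6-ChrYSJL replicate 2 only H2-Oa had such a p, at −0.23, and 1249 of all tested were higher and 1268 lower. Without B6 replicate 1 only H2-Ab1 did, at 0.70, with 1097 higher and 1322 lower of all tested. Without B6 replicate 2 only H2-Eb1 did, at 0.42, with 925 higher and 1211 lower. In the fit of all 6 pools 1099 were higher and 1385 lower. H2-Aa, H2-Ab1 and H2-Eb1 were above 0 with any single pool left out (0.17 to 0.77, 0.45 to 0.90 and 0.26 to 0.52), and Cd74 lay between −0.09 and 0.32.

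**Figure D2:**
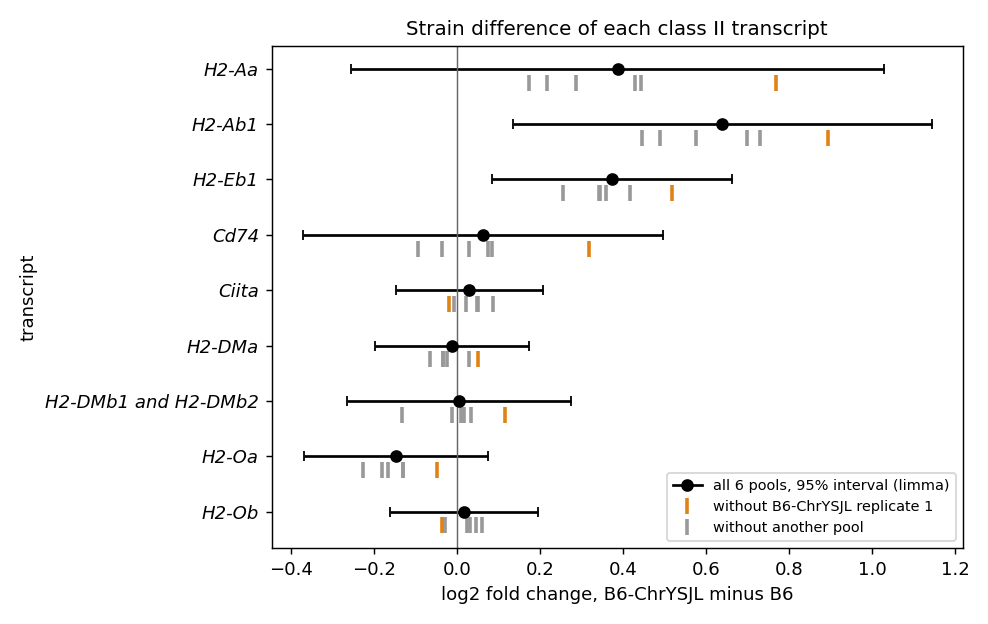
Log2 fold change of each class II transcript cluster, B6-ChrYSJL minus B6 (horizontal), as black points with the 95% interval of limma over the 6 pools; the ticks under each give the value with 1 pool left out, orange without B6-ChrYSJL replicate 1 and grey without another pool. H2-Ab1 (0.64) and H2-Eb1 (0.37) have intervals above 0, and without B6-ChrYSJL replicate 1 H2-Aa, H2-Ab1, H2-Eb1 and Cd74 lie at 0.32 to 0.90.

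Pools of B6-ChrYSJL differed from each other more than pools of B6 did in all 9 clusters, whereas 50.5% of all tested transcripts had the larger SD in B6-ChrYSJL. The SD was 0.66 in B6-ChrYSJL and 0.17 in B6 for H2-Aa, 0.46 in B6-ChrYSJL and 0.26 in B6 for H2-Ab1, 0.27 in B6-ChrYSJL and 0.08 in B6 for H2-Eb1, and 0.25 in B6-ChrYSJL and 0.03 in B6 for the cluster of H2-DMb1 and H2-DMb2. H2-Aa, H2-Ab1 and Cd74 spanned more than 0.7 among the B6-ChrYSJL pools, as 0.632% of all tested transcripts did. The SD within strains placed H2-Aa above 99.9% of all tested transcripts, H2-Ab1 above 99.6%, Cd74 above 99.1% and H2-Eb1 above 91.6%. Ciita, H2-DMa and H2-Ob stood at 38.7%, 46.2% and 39.7% and did not vary more than most transcripts. These are descriptions of the same 3 pools across genes, which are not independent of each other.

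The pools had a common pattern across the chains. The mean of H2-Aa, H2-Ab1 and H2-Eb1, each taken relative to its mean over the 6 pools, was −0.29, 0.49 and 0.49 in B6-ChrYSJL replicates 1, 2 and 3, against −0.28, −0.26 and −0.15 in B6. The other 5 clusters (Ciita, H2-DM and H2-DO) averaged −0.08, 0.01 and 0.03 in B6-ChrYSJL, against −0.01, 0.03 and 0.02 in B6, with members that ran in opposite directions. In B6-ChrYSJL replicates 1, 2 and 3, H2-DMb1 with H2-DMb2 stood at −0.22, −0.05 and 0.28, and Ciita at 0.12, 0.03 and −0.10. B6-ChrYSJL replicate 1 had the lowest signal of the 6 pools in 5 of the 9 clusters (H2-Aa, Cd74, H2-DMa, H2-DMb1 with H2-DMb2, and H2-Oa), against 15.7% of all tested transcripts, and the highest in Ciita and H2-Ob. B6-ChrYSJL replicate 3 had the highest signal in 5 (H2-Aa, H2-Eb1, Cd74, H2-DMa, and H2-DMb1 with H2-DMb2). The share of all tested transcripts highest in that pool was not counted, so whether 5 of 9 is unusual cannot be said. H2-Ab1, H2-Aa and H2-Eb1 stand next to each other among the class II genes of chromosome 17, and Cd74, which followed them within B6-ChrYSJL, lies on chromosome 18.

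**Figure D3:**
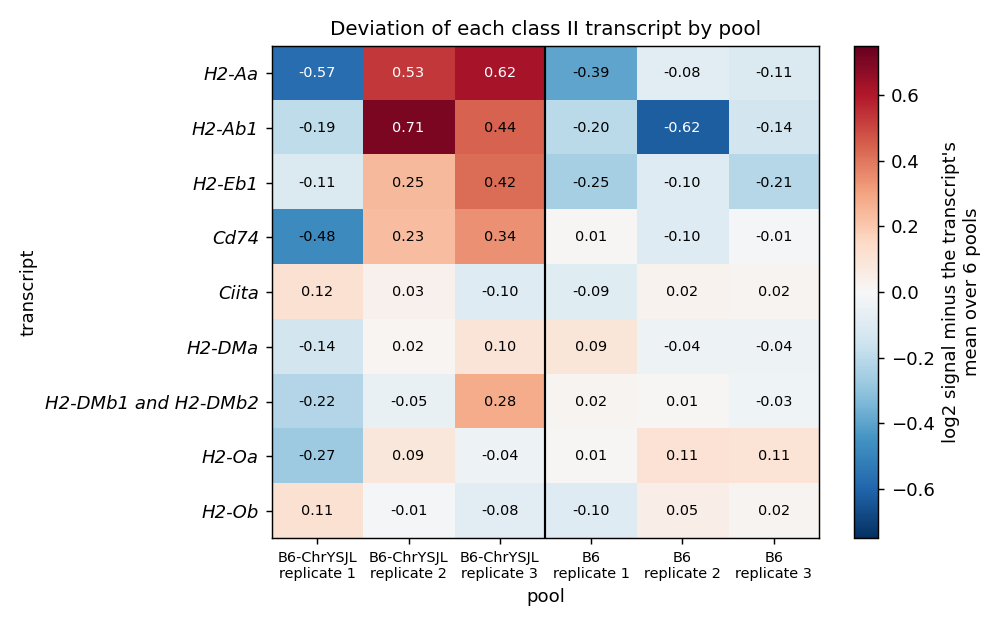
Signal of each class II transcript cluster (rows) in each pool (columns, B6-ChrYSJL left of the line and B6 right) minus its mean over the 6 pools, in log2 units, written in each cell and coloured from blue (below the mean) to red (above). B6-ChrYSJL replicates 2 and 3 are above the mean and replicate 1 below it in H2-Aa, H2-Ab1, H2-Eb1 and Cd74, and the rows of Ciita, H2-DMa and H2-Ob stay between −0.14 and 0.12.

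The other class II genes of the region were dark. H2-Ea, the α gene of I-E, averaged 4.37 in B6-ChrYSJL and 4.50 in B6, below the background level in every pool. H2-Eb2, a β gene beside H2-Eb1, had 5.36, 5.53 and 5.53 in B6-ChrYSJL, against 5.83, 5.52 and 5.75 in B6, also below it, with an unadjusted p of 0.0399 in limma (−0.23). In H2-Eb2 the B6-ChrYSJL pools overlapped with B6 replicate 2 and lay below the other B6 pools.

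Other genes of the pathway were measured in 7 lists with 46 genes. In limma 0 passed an FDR of 0.05, against 0.0171% of all tested transcripts. At an unadjusted p under 0.05, 0 of the 46 were higher, against 4.69% of all tested, and 7 were lower, against 5.92%. All 12 transcription factors and cofactors of the class II module were above background, with a median of −0.06, and 2 were lower at that p, the chromatin remodeler Smarca4 (−0.23) and Prdm1, a repressor of Ciita (−0.30). Rfx5, which binds the X box, had 7.21, 7.29 and 7.29 in B6-ChrYSJL, against 7.23, 7.19 and 7.22 in B6 (difference 0.05). B6-ChrYSJL replicates 2 and 3 were its highest pools, within a narrow span. Its correlation with the mean of the class II chains over the 6 arrays was 0.94. Of the 12 factors it alone exceeded 0.9, as 1.21% of all tested transcripts did. A positive value was found for 5 of the 12, against 47.3% of all tested, and Rfxank was at −0.72. Of 9 measured genes of interferon-γ signaling, which induces Ciita, 1 was lower, Ifng itself (−0.32, near background), and the median was −0.02. Of 8 endosomal enzymes of antigen processing, all were below 0 (median −0.04) and 1 was lower, the protease Ctsl (−0.24). Ctss, the protease that trims the invariant chain, was at −0.01.

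Of 3 genes of class II turnover, Cd83, which shields class II molecules from ubiquitination, was at −0.43 (unadjusted p = 0.00137 and adjusted p = 0.254 in limma) and the ubiquitin ligase Marchf8, below background, at −0.18. None of 9 neighbors in the class II region, among them the immunoproteasome and peptide transporter genes, had an unadjusted p under 0.05 (median −0.01), nor did any of 3 measured class I genes (median −0.09). Among these B2m, the light chain of class I molecules, had 12.90, 13.07 and 13.05 in B6-ChrYSJL, against 12.90, 12.87 and 12.83 in B6. B6-ChrYSJL replicates 2 and 3 were thus the highest pools of B2m (difference 0.14, adjusted p = 0.533 in limma). The other class I genes, H2-Q4 and H2-M3, did not have this order and were highest in B6 replicate 2. The chains H2-K1 and H2-D1 have no cluster of their own and were not compared.

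Markers of B cells shared part of the pool pattern. The mean of 16 measured B cell markers, relative to the 6 pools, was −0.10, 0.09 and 0.19 in B6-ChrYSJL replicates 1, 2 and 3, against −0.09, −0.08 and −0.01 in B6. The signal summed over the 16 on the linear scale ranged from 1230 to 1440 in B6-ChrYSJL and from 1270 to 1316 in B6. Cd79b, a chain of the B cell receptor complex, had 7.22, 7.61 and 7.78 in B6-ChrYSJL, against 7.21, 7.38 and 7.42 in B6, and Cd79a, its partner, had 5.71, 6.15 and 6.75 in B6-ChrYSJL, against 5.74, 6.12 and 6.07 in B6. Replicate 1 was the lowest and replicate 3 the highest of the B6-ChrYSJL pools in both. Not all markers followed, since Pax5 and Vpreb3 had their highest signal of the 6 pools in B6-ChrYSJL replicate 1. That replicate was the lowest of the 6 pools in 3 of the 16 markers, against 15.7% of all tested transcripts.

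Only 8 of the 16 B cell markers averaged above background, and the defining marker Ms4a1 (CD20), at 4.91, 5.14 and 5.64 in B6-ChrYSJL and 4.75, 4.92 and 4.90 in B6, was below it in every pool. In limma 0 of the 16 passed an FDR of 0.05. At an unadjusted p under 0.05, Ebf1 (0.25, below background) and Fcrla (0.26) were higher and Cd72 (−0.20) was lower, that is 2 and 1 of 16, against 4.69% higher and 5.92% lower of all tested transcripts, and the median of the 16 was 0.13. Without B6-ChrYSJL replicate 1 this median was 0.18, and over the pools left out it ranged from 0.06 to 0.18. The part of B cells in the class II signal was not tested.

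Averaged over each list, markers of the other cells that carry class II molecules had no such order of pools. Only 7 of 15 dendritic cell markers and 8 of 15 macrophage and monocyte markers averaged above background, which limits these means. B6-ChrYSJL replicate 1 was the lowest of the 6 pools in 0 and 2 of them, against 15.7% of all tested transcripts. Lyz2 was 1 of these, at 6.48, 7.44 and 7.25 in B6-ChrYSJL, against 6.94, 7.24 and 7.72 in B6. The mean of 15 dendritic cell markers stayed between −0.04 and 0.04 in B6-ChrYSJL and between −0.07 and 0.06 in B6, and that of 15 macrophage and monocyte markers between 0.01 and 0.03 in B6-ChrYSJL and between −0.05 and 0.00 in B6. Summed on the linear scale, the dendritic cell markers gave 974 to 1029 in B6-ChrYSJL and 975 to 1084 in B6, and the macrophage and monocyte markers 1086 to 1126 in B6-ChrYSJL and 1065 to 1112 in B6. The integrin Itgax (CD11c) was below background in every pool (0.17, unadjusted p = 0.047 in limma), and the receptor Flt3 reached it in 2 (0.07). Csf1r, the receptor of macrophage growth factor, was below background in every pool (−0.07).

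Some single markers differed at an unadjusted p under 0.05 in limma, where 4.69% of all tested transcripts were higher and 5.92% lower. Of 15 dendritic cell markers 2 were higher and 3 lower, and of 15 macrophage and monocyte markers 1 and 1. Of 10 stromal markers 3 were higher and 0 lower, and of 7 plasma cell markers 0 and 2. The 2 CD8 markers were lower. These lists are short, and no test of a list was run. Cd83, listed here too, Epcam (−0.29) and Xcr1 (−0.29, below background) were lower among dendritic cell markers, and Cd207 (0.22, below background) was higher, as was Itgax. The complement gene C1qa was higher (0.42, with 7.22, 7.35 and 7.35 in B6-ChrYSJL, against 7.21, 6.59 and 6.85 in B6), and C1qb, a chain of the same complex, was lower (−0.23). Of 7 plasma cell markers Prdm1 and Irf4 (−0.20) were lower, and of 10 stromal markers Pdpn (0.20), Col1a2 (0.18) and Col3a1 (0.18) were higher. Cd8a (−0.54) and Cd8b1 (−0.28), the chains of the CD8 coreceptor, were lower, and their mean relative to the 6 pools was −0.17, −0.15 and −0.30 in B6-ChrYSJL, against 0.09, 0.24 and 0.29 in B6. The mean of the stromal markers was 0.0675, 0.00213 and 0.0513 in B6-ChrYSJL, against −0.00299, −0.0435 and −0.0745 in B6. In these 2 lists, as in those of macrophages and monocytes and of T cells, the means of the strains did not overlap. The same held for the lists of other class II genes, transcription factors and cofactors, endosomal enzymes and class II turnover. For the endosomal enzymes the highest B6-ChrYSJL mean was 0.00498 and the lowest B6 mean 0.00508. Single transcripts without overlap made up 17.1% of all tested, and no such share was counted for means of lists. Lack of overlap is therefore no result about these lists, and the part of these cells in the class II signal was not tested. None of 9 measured T cell genes had an unadjusted p under 0.05, with a median of −0.03, and no marker of these lists passed an FDR of 0.05.

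**Figure D4:**
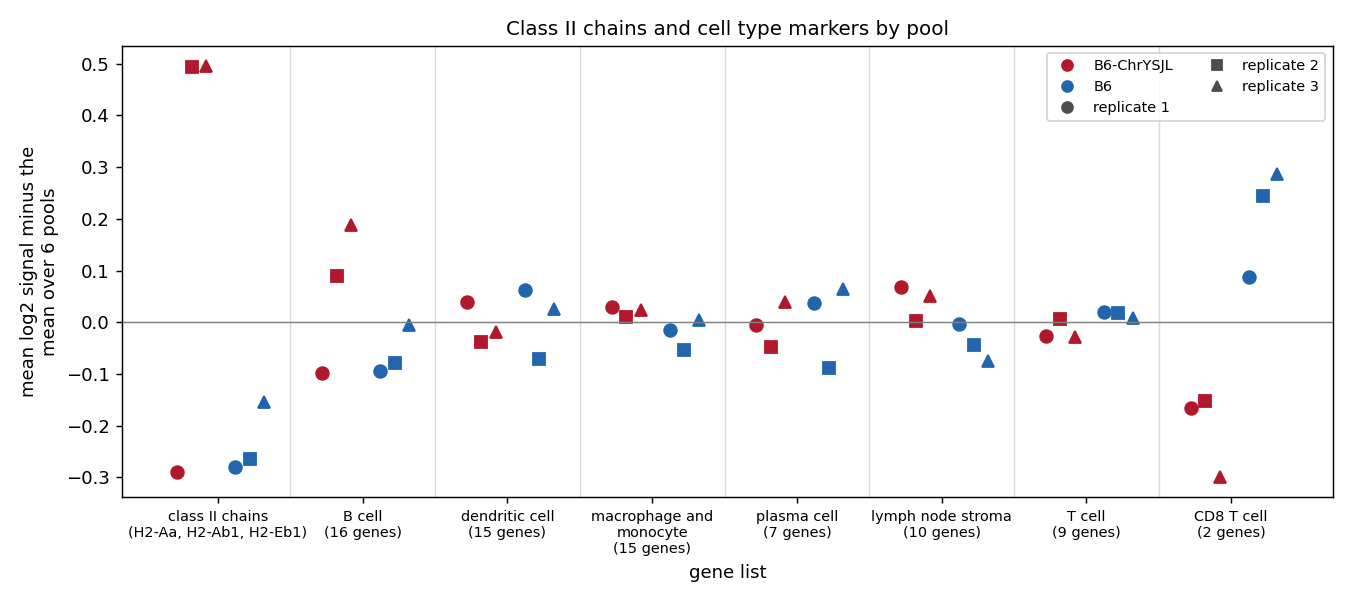
Mean log2 signal minus the mean over the 6 pools (vertical) of the class II chains and of lists of cell type markers, with B6-ChrYSJL pools in red and B6 pools in blue and replicates 1, 2 and 3 as circles, squares and triangles. The class II chains and the B cell markers place B6-ChrYSJL replicates 2 and 3 highest (0.49 and 0.49 for the chains, 0.09 and 0.19 for the markers), the CD8 chains are lower in all B6-ChrYSJL pools (−0.30 to −0.15) than in B6 (0.09 to 0.29), and the other lists stay between −0.09 and 0.07.

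The transcripts whose pattern over the 6 arrays was most like that of the mean of the chains were sought above the background level, which 8 of the 16 B cell markers did not reach. Among 13469 other transcripts above background with 1 gene symbol, the 10 most similar by Pearson's correlation were Plpp6, Gm6548, Rbks, Ppt1, 2 clusters of Rpl7, Ccdc71l, Rps3a1, Rab1a and Lztfl1, at 0.977 to 0.996. Ppt1, a lysosomal enzyme that removes fatty acids from proteins, had 9.52, 9.68 and 9.72 in B6-ChrYSJL, against 9.54, 9.52 and 9.56 in B6, and Plpp6, a lipid phosphatase, had 8.69, 8.88 and 8.88 in B6-ChrYSJL, against 8.69, 8.69 and 8.74 in B6. Both matched in shape with a span far smaller than that of H2-Aa. With 6 arrays such similarity was common, since 189 of these transcripts (1.40%) exceeded 0.9, and no p is given. Cd79b and the IgE receptor Fcer2a exceeded it among the B cell markers, 2 of 16, against 1.21% of all tested transcripts, bright or dim, and 14 of the 16 had a positive value, against 47.3%. Cd74 was at 0.81.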

How the data were processed

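From 50 ng of amplified RNA, hybridized to Affymetrix Mouse Gene 1.0 ST arrays, the authors made log2 values by RMA (background correction, quantile normalization and median polish) with Partek Genomic Suites, version 6.6, so that every cluster has a single deposited number for each pool; the submitters' processing notes name GCOS and the mm9 build. These log2 values were used unchanged. The number of arrays limits the precision. Clusters took names from the platform annotation, updated by gene identifier with RefSeq (GRCm38.p6, used also for the gene order and the promoters). Of the clusters, 21789 had 1 symbol, 1621 had several, and 12146 without one were not tested. A gene with several clusters was read from the brightest.

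The fit was limma 3.58.1 in R 4.3.3 (lmFit, eBayes, B6-ChrYSJL minus B6, no block) over 23410 clusters with Benjamini-Hochberg adjustment; every adjusted p is limma's. The smallest p of an exact permutation test at this size, 3 against 3, is 0.1, and none was used. Pools are separate sets of mice, so p-values measure spread between pools. On simulated data for this comparison over 23410 transcripts, an FDR of 0.05 found 49% of 100 transcripts set to differ by 0.5 and 96% of 100 set to differ by 1, with 5 false calls. Those transcripts were drawn at random, and the median SD within strains over all tested was 0.104. H2-Aa, H2-Ab1 and Cd74 had 0.485, 0.375 and 0.318, so these percentages do not hold for them. The members, gene lists and markers were chosen with earlier results of these data known. Named were all members, the listed genes with the 4 smallest p under 0.05, defining markers, and the 10 transcripts most like the chains; the other genes given values, such as Rfx5, Ctss, Cd79b, Fcer2a, B2m, H2-Ea, H2-K1 and H2-D1, were named after their values were seen. Alternatives were a different variance model, weights for arrays, median-centring, a repeated quantile normalization, bright transcripts only, clusters without a symbol added, a block for the replicate number, and 1 pool omitted at a time. Figures used Python 3.11.15 and matplotlib 3.10.9. Some listed genes are not reported here.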

Additional observations from a re-analysis of the deposited data

How the results depend on the processing

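No class II cluster passed an FDR of 0.05 in any of 126 refits of single clusters (adjusted p 0.248 to 0.998). The count at an unadjusted p under 0.05 was 2 in all alternatives over 6 arrays except the unmoderated linear model of the methods, where it was 0. With 1 pool left out it ranged from 0 to 4 in limma. Over all 23410 tested, 773 to 1249 were then higher and 1008 to 1333 lower at this p. The count without overlap ranged from 1 to 4 with 1 pool left out, and the median difference from 0.02 to 0.12. It was 4 without B6-ChrYSJL replicate 1, where 12.8% of all tested transcripts were higher without overlap. With another pool left out it was 1 or 2. Shares of all tested transcripts without overlap are not given for those pools, so these counts are no result about the members. Directions turned in 15 refits, all of clusters near 0: H2-DMa was at 0.00498 with array weights and 0.0269 after repeated quantile normalization, H2-DMb1 with H2-DMb2 at −0.0122 after median-centring and −0.00307 after repeated quantile normalization, and H2-Ob at −0.0012 after median-centring. With 1 pool left out, Cd74 ranged from −0.0936 to 0.318, Ciita from −0.0199 to 0.0874, H2-DMa from −0.0653 to 0.0520, H2-DMb1 with H2-DMb2 from −0.133 to 0.116 and H2-Ob from −0.0368 to 0.0616. The cause was not tested. With the replicate number as a block the count stayed at 2 (H2-Ab1 and H2-Eb1) and the median at 0.03. The unadjusted p in limma was 0.0577 for H2-Aa, 0.0227 for H2-Ab1 and 0.00977 for H2-Eb1, against 0.204, 0.0189 and 0.0175 without a block. Same-numbered pools did not deviate together across all tested transcripts (correlations −0.0001, −0.04 and −0.02). That does not settle the class II clusters, since H2-Aa was lowest in replicate 1 of either strain. What same-numbered pools share was not tested. Over all tested transcripts, 4 passed an FDR of 0.05, against 47 with trend and robust moderation, 0 with the unmoderated model, 13 of 14394 above background, 0 of all 35556 deposited clusters, 11 after median-centring, 2 after repeated quantile normalization and 0 to 7 with 1 pool left out. Signals near the background level, as for Ciita, limit what can be seen.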
